A study of Mus musculus with 8 samples.

Results

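The 52 genes described here encode proteins that build cilia or make them beat, and were chosen by symbol from the 19928 genes tested in olfactory mucosa. The 24 transport genes are those whose symbol is Ift or Bbs followed by digits, or starts with Dync2. The 28 motile axoneme genes have symbols that start with Dnah, Dnaic, Dnali, Rsph or Tekt. Membership was set by symbol. Each gene is represented by a transcript cluster, for most genes the array's combination of probes over the exons. Where several clusters named 1 gene, the one with the highest mean was kept, and it need not cover every exon. This was so for 6 members, with 33 clusters for Dnah3.

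Every cilium is built and maintained by intraflagellar transport (IFT). Trains of IFT-B and IFT-A proteins are carried to the tip by kinesin motors and back to the base by the cytoplasmic dynein whose subunits have Dync2 symbols, and the BBSome, a complex of Bardet-Biedl syndrome proteins, rides with them to move membrane proteins. Dynein arms, radial spokes and tektins belong to the axoneme, the microtubule core, and serve beating. Olfactory mucosa holds both kinds of cilia, the long sensory cilia of olfactory sensory neurons (OSNs), which carry odorant receptors and lack dynein arms, and the beating cilia of neighbouring respiratory epithelium.

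Total RNA of olfactory mucosa was hybridized to GeneChip Mouse Gene ST arrays (Affymetrix), with a separate array for each of 4 conditional knockouts (cKO, 123Cre:Lhx2fl/fl) and 4 controls at postnatal day 3, all on a mixed 129 x C57BL/6J background. Controls 1 and 2 were Lhx2fl/+ and controls 3 and 4 were 123Cre:Lhx2fl/+, so that every control carried 1 floxed allele and 2 of them also carried Cre. Lhx2 encodes a LIM-homeodomain transcription factor, and the comparison asks what changes in the mucosa when its first exons are deleted by a Cre that becomes active in immature OSNs. Many OSNs escape the deletion, and reporter mice of the study showed Cre activity in no other cells of the OSN layers. Sample titles start with a letter of unstated meaning, A for cKO 1, 3 and 4 and for controls 3 and 4, and B for cKO 2 and for controls 1 and 2, and the control genotypes cannot be told apart from the letters.

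All values are on the log2 scale, and differences are cKO minus control, without the study's normalization to mature OSN mRNAs. Array medians lay between 8.82 and 8.89. The Lhx2 cluster, which also covers exons that are not deleted, differed by -0.24 (adjusted p = 0.337 by limma). It read 12.55 on array cKO 2, 13.01 to 13.03 on the other cKO arrays and 13.09 to 13.20 in controls. Omp, the marker of mature OSNs, read 13.4 ± 0.049 in controls and 12.5 ± 0.32 in cKO mice (SD, n = 4 each). Foxj1, a transcription factor of motile cilia formation, read 10.5 ± 0.10 in controls and 10.4 ± 0.10 in cKO mice. It is counted below among both the respiratory ciliated cell markers and the ciliogenesis transcription factors. Which cells gave its signal was not tested. Of 18 mature OSN markers 18 had a difference below 0, against 37.7% of all genes. By limma, 5 were lower at an adjusted p under 0.01, against 2.07% of all genes. Array cKO 2 had the lowest mature OSN mean (10.9 against 11.5 to 11.6 in the other cKO arrays and 12.1 to 12.2 in controls). By sex-linked mRNAs it was the only cKO array from a female, while controls 1 and 4 were from females and controls 2 and 3 from males. Sex was thus not balanced between the groups, and its part in the value of cKO 2 was not tested. In tissue RNA, fewer cells of a type and less RNA per cell cannot be told apart.

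RFX factors are known regulators of transport genes and the forkhead factor FOXJ1 of motile axoneme genes. The 250 bases before the start of each gene were searched on both strands in RefSeq sequence of build GRCm38.p6, which held 45 of the 52 genes. Dnah3, Rsph1, Rsph4a, Dync2li1, Ift122, Ift80 and Ift81 had no entry. An X-box, the paired site of RFX factors (GTTNCC and GGNAAC with 0 to 3 bases between them), was present in 2 of 20 transport windows (10%), those of Bbs7 and Ift57, in 0 of 29 motile axoneme windows and in 0.673% of all 32851 windows of that length. The LIM-homeodomain core TAATTA was present in 0 windows of either class, against 4.84% of all windows. The forkhead core GTAAACA was present in 0 transport windows and 2 motile axoneme windows (6.9%, Tekt3 and Dnah17), against 3.17% of all. The Ebf core CCCNNGGG, named for a factor of OSNs, was present in 2 transport windows (10%) and 7 motile axoneme windows (24.1%), against 11.8% of all. In the members, matches of different motifs did not overlap, while the Dnah2 window held overlapping matches of the Ebf core. The X-box sites, the forkhead site of Tekt3 and the whole window of Dnah11, the member with the largest difference, are given here on the strand of the gene with the matched bases in capitals. The Bbs7 site lies on chr3:36613489-36613518 (- strand), where the window belongs to a transcript that starts inside the annotated gene, and the matched bases lie before the gene's outermost start. The Ift57 site lies on chr16:49699226-49699254 (+ strand), the Tekt3 site on chr11:63061475-63061501 (+ strand), and the Dnah11 window spans chr12:118199044-118199293 (- strand) with an Ebf core.
Bbs7 X-box: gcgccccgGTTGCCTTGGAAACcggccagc
Ift57 X-box: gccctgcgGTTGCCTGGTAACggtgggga
Tekt3 forkhead core: atattatttgTGTTTACtgaaaactta
Dnah11 upstream window: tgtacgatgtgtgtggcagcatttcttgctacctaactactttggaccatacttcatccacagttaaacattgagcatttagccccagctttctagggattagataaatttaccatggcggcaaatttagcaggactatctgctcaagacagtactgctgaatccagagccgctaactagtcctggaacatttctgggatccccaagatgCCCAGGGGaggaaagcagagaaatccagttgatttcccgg
These matches describe letters in a window and were not tested for binding. Of the genes shown, Bbs7 and Ift57 share the X-box, and their differences are given with the transport genes.

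At the main threshold, an adjusted p under 0.01 by limma over all genes, 0 of 24 transport genes were lower and 0 were higher in cKO mice, when 2.07% of all genes tested were lower and 0.0602% higher. The same held for 0 and 0 of 28 motile axoneme genes. At an adjusted p under 0.05, which 5.17% of all genes passed as lower and 0.366% as higher, 3 transport genes (12.5%) and 1 motile axoneme gene (3.57%) were lower and 0 were higher. Here and throughout, the shares of all genes include odorant receptors, which the study found to make up most of the significantly affected mRNAs. A share without the receptors was not computed. Without adjustment, a p under 0.05 by limma was reached by 11 transport genes (45.8%) and 7 motile axoneme genes (25%) in the lower direction, against 9.87% of all genes, and by 0 and 1 in the higher direction, against 5.13%. The methods' t-test with Benjamini-Hochberg adjustment called 0 members at either threshold, when over all 19928 genes it called 0 lower and 1 higher at 0.01, and 163 lower and 12 higher at 0.05.

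The fitted difference was below 0 for 23 of 24 transport genes (95.8%) and for 14 of 28 motile axoneme genes (50%), compared with 37.7% of all genes. These counts were 21 and 11 after quantile normalization and 24 and 16 after centring each array on the median of genes that encode no chemoreceptor. The median difference was -0.13 over transport genes (quartiles -0.18 and -0.06), 0.0023 over motile axoneme genes (quartiles -0.14 and 0.05) and 0.03 over all genes. All 4 cKO arrays lay below all 4 controls for 7 transport genes (29.2%; Bbs1, Bbs7, Dync2h1, Ift46, Ift80, Ift81 and Ift172) and 6 motile axoneme genes (21.4%; Dnah11, Rsph1, Rsph9, Rsph14, Tekt2 and Tekt3), against 8.43% of all genes, and above them for 0 members, against 3.18%. The sizes were small, since the lowest difference among transport genes, that of Bbs7, corresponds to 81.7% of the control level. Standard errors of members ran from 0.039 to 0.144, with a median of 0.06, so that a difference as small as the transport median is close to what 4 arrays per group can separate from 0.

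**Figure D1:**
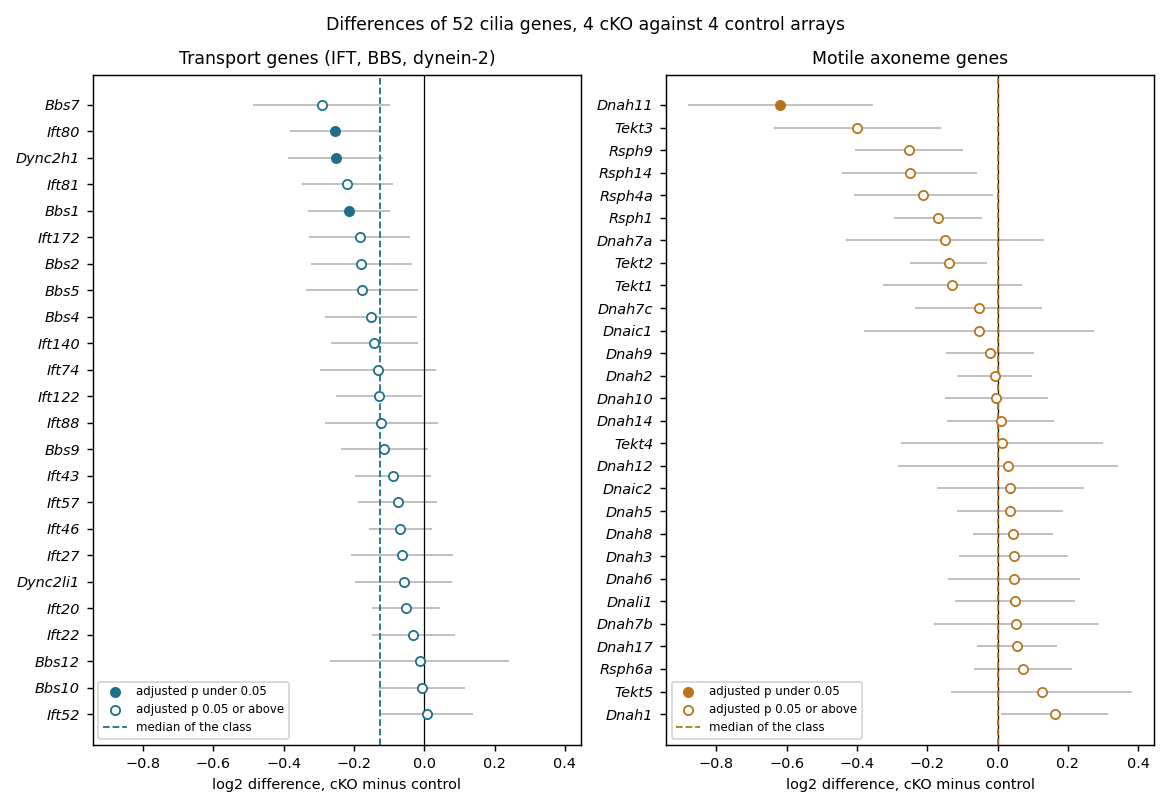
Each row is 1 gene, with its fitted log2 difference (cKO minus control, 4 arrays each) and 95% confidence interval from limma, transport genes on the left and motile axoneme genes on the right. Filled points passed an adjusted p under 0.05, and the dashed line marks the class median, -0.13 for transport genes and 0.0023 for motile axoneme genes.

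The BBSome genes lay below 0 throughout. All 6 of its measured subunits with Bbs symbols had a difference below 0, with a median of -0.18, and 5 of them reached an unadjusted p under 0.05. Bbs1, a subunit that binds the membrane-recruiting GTPase Arl6, read 10.73, 10.55, 10.72 and 10.69 in cKO mice 1 to 4, against 10.86, 10.87, 10.90 and 10.91 in controls 1 to 4. The controls were nearly level, all cKO arrays lay below them, and cKO 2 was the lowest. The difference was -0.21 (SE 0.051, adjusted p = 0.0447 by limma), or 86.2% of control. Bbs7, another subunit, read 10.42, 10.29, 10.43 and 10.47 in cKO mice and 10.61, 10.58, 10.95 and 10.65 in controls, a difference of -0.29 (SE 0.086, adjusted p = 0.105). Here the groups did not overlap either, but control 3 stood well above the other controls. Bbs9 had the smallest difference of the complex (-0.11, 95% confidence interval -0.24 to 0.01). The eighth Bardet-Biedl protein, a BBSome subunit named Ttc8 and therefore outside the symbol rule, read 10.96, 10.83, 10.99 and 10.97 in cKO mice and 11.21, 11.22, 11.27 and 11.29 in controls. It was lower by limma (log2 difference -0.31, SE 0.049, adjusted p = 0.00789), the only one of the 7 measured BBSome subunits to pass the main threshold. Bbs10 and Bbs12, chaperonin-like proteins that help the BBSome assemble, each differed by -0.01, with intervals from -0.13 to 0.12 and from -0.27 to 0.24, and Bbs12 varied widely among cKO mice, from 7.36 to 7.94.

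Among the motor subunits, Dync2h1, the heavy chain that drives return transport, read 10.31, 10.29, 10.31 and 10.23 in cKO mice and 10.54, 10.39, 10.66 and 10.55 in controls. The cKO values lay close together below all controls, of which control 2 was the lowest. The difference was -0.25 (SE 0.060, adjusted p = 0.0442 by limma), or 84.0% of control. Its partner Dync2li1, the light intermediate chain, differed by -0.06 (95% confidence interval -0.20 to 0.08) with overlapping groups.

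Of 11 IFT-B genes, which encode the larger train complex, 10 had a difference below 0 (median -0.08). Ift80 read 10.84, 10.64, 10.84 and 10.78 in cKO mice and 11.01, 10.96, 11.07 and 11.06 in controls. No cKO array reached any control, and cKO 2 was again the lowest. The difference was -0.25 (SE 0.057, adjusted p = 0.0362 by limma), or 83.9% of control. Ift81, which binds tubulin cargo together with Ift74, differed by -0.22 (SE 0.057, adjusted p = 0.0677), and Ift172 by -0.18 (SE 0.064, adjusted p = 0.186), each with all cKO arrays below all controls. Ift57, which shares the X-box with Bbs7, differed by -0.08 (95% confidence interval -0.19 to 0.04). Ift52, a core subunit, was the only transport gene with a difference above 0 (0.01, 95% confidence interval -0.12 to 0.14), a sign that turned when arrays were centred on their medians. The remaining IFT-B members lay between -0.13 (Ift74) and -0.03 (Ift22, a small GTPase).

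The 3 IFT-A genes, whose products turn the trains around at the tip and carry receptors into the cilium, differed by -0.14 (Ift140), -0.13 (Ift122) and -0.09 (Ift43). Their adjusted p-values ran from 0.246 to 0.447 by limma, and the groups of each gene overlapped.

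**Figure D2:**
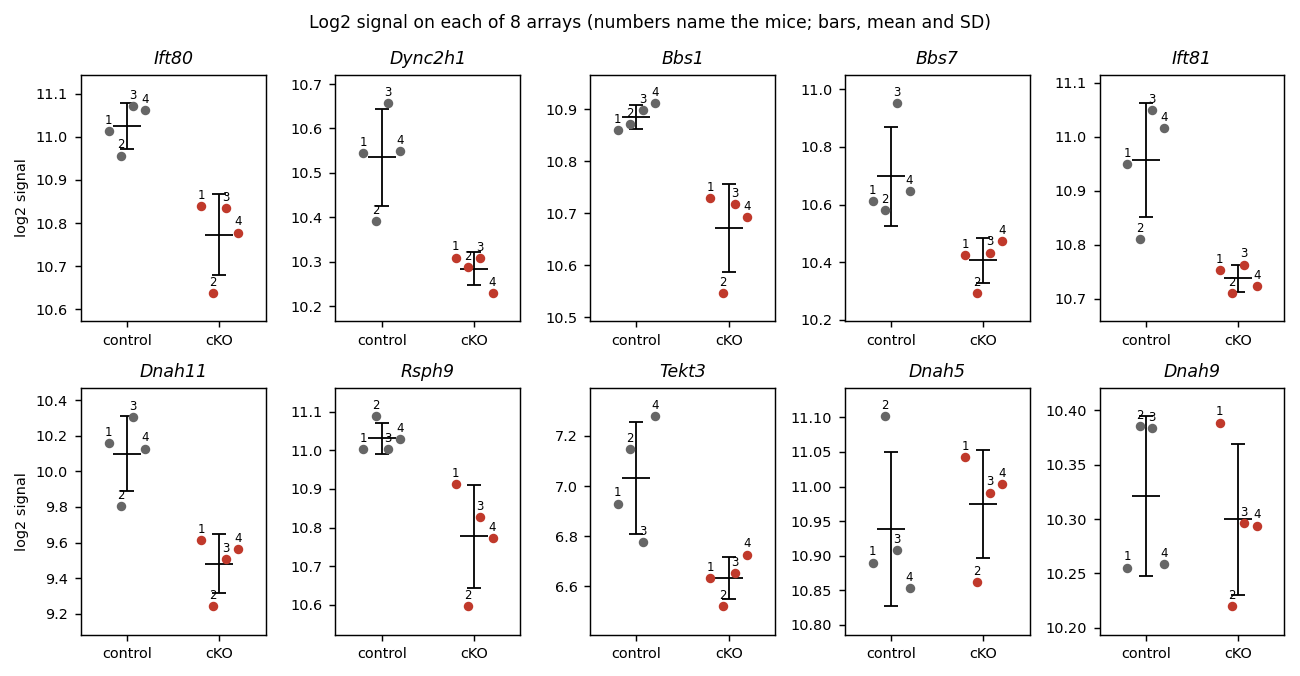
Log2 signal of 10 member genes on each array (vertical axes differ and do not start at 0), with controls in grey, cKO mice in red, the mouse number beside each point, and bars for the mean and SD of 4 arrays. Dnah11 ran from 9.81 to 10.30 in controls and from 9.24 to 9.61 in cKO mice, while the groups overlapped for Dnah5 and Dnah9.

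The motile axoneme genes are given by role, and differences between roles were not tested. Of 15 dynein heavy chains, the force-producing motors of the arms, 9 had a difference above 0, 6 had one below 0 and the median was 0.03. The lowest was Dnah11, an outer arm heavy chain, which read 9.61, 9.24, 9.51 and 9.56 in cKO mice and 10.16, 9.81, 10.30 and 10.13 in controls. The groups did not overlap, and control 2 and cKO 2 were each the lowest of their group. The nearest arrays, cKO 1 and control 2, lay closer together than the extremes within either group. The difference was -0.62 (SE 0.116, adjusted p = 0.0166 by limma), or 65.2% of control, the largest of the 52 genes. Dnah5, the other kind of outer arm heavy chain, read 11.04, 10.86, 10.99 and 11.00 in cKO mice and 10.89, 11.10, 10.91 and 10.85 in controls, with a difference of 0.04 (95% confidence interval -0.11 to 0.19). Dnah9, like Dnah11 an outer arm chain, differed by -0.02 (95% confidence interval -0.15 to 0.10). These intervals lie apart from that of Dnah11, which ran from -0.88 to -0.36, although the differences were not tested against each other. Dnah1, an inner arm heavy chain, had the highest difference (0.16, SE 0.067, adjusted p = 0.290 by limma), and control 2 overlapped the cKO range.

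The heavy chain genes Dnah7a, Dnah7b and Dnah7c are near-identical copies whose probes may be shared, so that their separate values are uncertain, and their differences ran from -0.15 to 0.05. Clusters that named more than 1 of them, or Rsph3a together with Rsph3b, were left out, and differed by -0.03 to 0.02. Dnah14 read 5.02 on average, under the 5.36 that was the median of 162 vomeronasal receptor genes, a guide to background. For 6 heavy chain genes with several clusters, 33 of them for Dnah3, differences ran from -0.03 to 0.14 and 0 clusters passed the main threshold.

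The dynein arm chains other than the heavy ones were nearly level. Dnali1, an inner arm light chain, differed by 0.05 (95% confidence interval -0.12 to 0.22), and Dnaic2, an outer arm intermediate chain, by 0.04 (-0.17 to 0.25). Dnaic1, its partner, differed by -0.05 (-0.38 to 0.27) and had the widest spread of the 52 genes within a group, from 9.19 to 9.77 in cKO mice and from 9.26 to 9.75 in controls.

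Of 5 radial spoke genes, 4 were below 0 with an unadjusted p under 0.05 by limma, and the median was -0.21. Rsph9, a spoke head protein, read 10.91, 10.60, 10.83 and 10.77 in cKO mice and 11.00, 11.09, 11.00 and 11.03 in controls, a difference of -0.25 (SE 0.068, adjusted p = 0.0736). The controls were tight, every cKO array was lower, and cKO 2 was farthest from them. Rsph14 (-0.25, adjusted p = 0.175), the spoke head gene Rsph4a (-0.21, adjusted p = 0.289) and the spoke head gene Rsph1 (-0.17, adjusted p = 0.150) also had differences below 0, with overlap between groups only for Rsph4a. Rsph6a, a testis-type spoke head gene, read 7.11 on average, below the lower quartile of all genes (7.52), and differed by 0.07 (95% confidence interval -0.07 to 0.21).

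Tektins, filament proteins inside the microtubule doublets, ran from -0.40 to 0.13. Tekt3 read 6.63, 6.52, 6.65 and 6.73 in cKO mice and 6.93, 7.15, 6.78 and 7.28 in controls, a difference of -0.40 (SE 0.105, adjusted p = 0.0676 by limma). The groups did not overlap, but cKO 4 and control 3 lay close together and the gene was below the lower quartile of level. Tekt2 differed by -0.14 (adjusted p = 0.184), again without overlap. Tekt4 (0.01) ranged from 9.70 to 10.28 within the cKO group, and Tekt5 (0.13, 95% confidence interval -0.13 to 0.38) was the highest of the family.

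Averaged over genes on each array, the transport genes read 10.53, 10.46, 10.54 and 10.48 in cKO mice 1 to 4, against 10.60, 10.57, 10.69 and 10.65 in controls 1 to 4. Every cKO array lay below all controls, with means of 10.50 ± 0.040 and 10.63 ± 0.055 (SD, n = 4 each) and a difference of -0.13. The control genotypes were themselves apart by -0.09 (Lhx2fl/+ minus 123Cre:Lhx2fl/+). The motile axoneme genes read 9.22, 9.06, 9.16 and 9.16 in cKO mice and 9.18, 9.26, 9.22 and 9.18 in controls, with overlapping groups and a difference of -0.06, which was -0.03 without cKO 2. The transport mean minus the motile axoneme mean therefore differed by -0.07 between cKO and control mice. Within letter A it differed by -0.14, and within letter B, with 1 cKO and 2 control arrays, by 0.04, because the motile axoneme difference was -0.02 within letter A and -0.17 within letter B. The transport difference was -0.16 and -0.13 within the letters. The contrast between the classes thus did not hold in both letters, and no test of it was made.

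Markers of the cells that carry these cilia moved as follows on the same arrays. The 18 mature OSN markers differed by -0.75 on average, from 12.08 to 12.15 in controls and from 10.92 to 11.60 in cKO mice. Over a much larger set of mature OSN mRNAs the study reported a smaller average decrease, and it described mature OSN number as slightly reduced. The -0.75 therefore holds for these 18 genes and is not a measure of cell number. The 18 genes of OSN cilia and odor transduction, of which 13 are also mature OSN markers, differed by -0.63 on average. Of these, 5 passed the main threshold as lower, against 2.07% of all genes. Among them were Adcy3, the olfactory adenylyl cyclase (-0.86, adjusted p = 0.00267 by limma), and Cnga4, a subunit of the transduction channel (-1.60, adjusted p = 0.00434). The 21 markers of respiratory ciliated cells differed by -0.01 on average (median 0.04), with 0 of 21 passing. By limma, 4 were lower at an unadjusted p under 0.05, against 9.87% of all genes. The markers Foxj1, Ak7 and Spag6 are also counted in lists of other cilia genes below. Array means of the 21 markers ran from 9.89 to 10.16 in cKO mice, cKO 2 being the lowest, and from 10.005 to 10.12 in controls. Further lists held markers of other cells. All 8 OSN progenitor, 9 dividing cell and 7 microvillous cell markers had a difference above 0, as did 12425 of all 19928 genes. Their medians were 0.14, 0.12 and 0.13. Of 17 immature OSN markers 11 were below 0 (median -0.01) and 1 passed the main threshold. Medians of sustentacular, horizontal basal, Bowman gland, and cartilage, bone, muscle and blood markers ran from 0.03 to 0.06. The part of any cell type in the differences of the cilia genes was not tested.

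**Figure D3:**
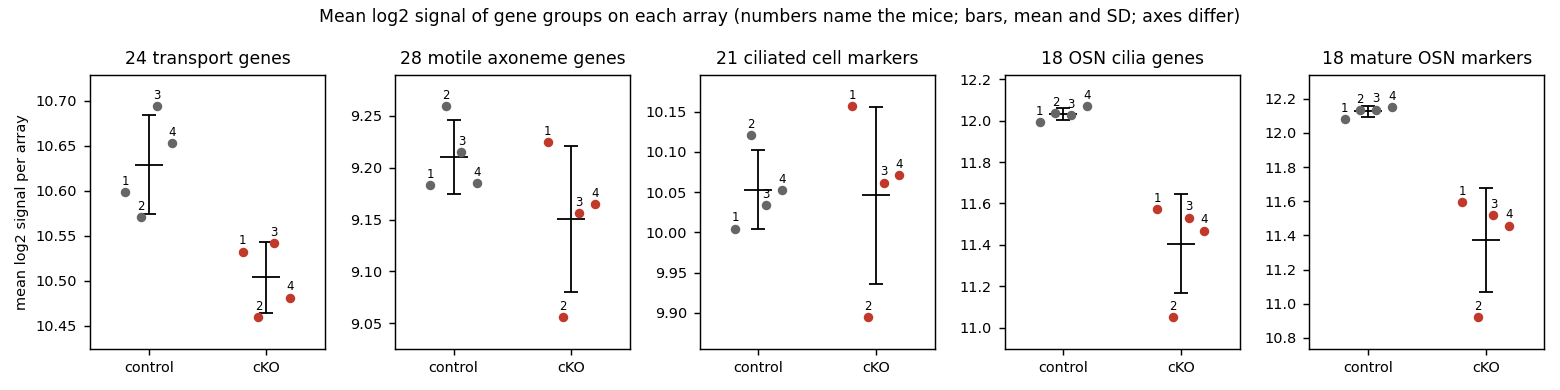
Mean log2 signal of 5 gene groups on each array, with controls in grey, cKO mice in red, the mouse number beside each point, and bars for the mean and SD of 4 arrays (vertical axes differ and do not start at 0). The transport genes and both OSN groups show no overlap between cKO and control arrays, while the motile axoneme genes and the ciliated cell markers overlap, with cKO 2 the lowest in all 5 groups.

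Other cilia genes without these symbols were followed through lists by role, of which, as of all genes, the methods' t-test called 0 lower at an adjusted p under 0.01. Of 12 other IFT subunits 10 had a difference below 0 (median -0.07) and 0 passed the main threshold, 3 being lower at an unadjusted p under 0.05 by limma. The lowest was Traf3ip1 (-0.18, adjusted p = 0.244), the IFT-B subunit that is also called Ift54. Of 17 IFT motors and cargo adaptors 13 were below 0 (median -0.11) and 2 passed an adjusted p under 0.05. Kif3c, a kinesin subunit, read 10.63, 10.34, 10.60 and 10.57 in cKO mice and 10.86, 10.95, 10.92 and 10.94 in controls (-0.39, adjusted p = 0.0124 by limma), without overlap. The other was Rabl2, a GTPase that binds IFT trains (-0.25, adjusted p = 0.0392). The kinesin genes Kif3b (-0.16, adjusted p = 0.0602 by limma), Kif17, Kifap3 and Kif3a (-0.12, adjusted p = 0.385) were below 0 without passing, and Kif7 was above 0 (0.04). Of 4 BBSome partners without a Bbs symbol, 3 had a difference below 0, and only the subunit Ttc8 passed the main threshold. Of 20 transition zone genes, which guard the base of the cilium, 16 were below 0 (median -0.07), 5 were lower at an unadjusted p under 0.05 by limma and 0 passed with adjustment, the smallest adjusted p being that of Tmem231 (-0.20, adjusted p = 0.0938).

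Among further axoneme genes, 15 of 21 dynein assembly and docking genes were below 0 (median -0.10) and 1 passed an adjusted p under 0.05, Ccdc40, which sets the spacing of inner arms and spokes (-0.40, adjusted p = 0.0142 by limma). Of 36 genes of the central pair and other axoneme parts 29 were below 0 (median -0.13), 5 passed an adjusted p under 0.05 and 2 passed the main threshold. For both lists, the shares of all genes are 37.7% below 0, 5.17% lower at an adjusted p under 0.05 and 2.07% at the main threshold. Cfap69 read 10.89, 10.89, 10.89 and 11.09 in cKO mice and 11.60, 11.48, 11.68 and 11.67 in controls (-0.67, adjusted p = 0.00207), or 62.8% of control. Cfap69 is an axonemal protein of sperm tails that is also made by OSNs, and its groups were far apart. Cfap58, another protein of sperm tails, differed by -0.47 (adjusted p = 0.00551), and the central pair gene Spef2 by -0.68 (adjusted p = 0.0103). Of 13 ciliogenesis transcription factors 9 were above 0 (median 0.06), as were 12425 of all 19928 genes (median 0.03). Rfx4 passed only the looser threshold as higher (0.27, adjusted p = 0.0406 by limma), while Rfx3 differed by -0.35 (adjusted p = 0.0707) and Foxj1 by -0.16 (adjusted p = 0.323). The other RFX genes of the list, Rfx1, Rfx2, Rfx5 and Rfx7, ran from -0.03 (Rfx1) to 0.06 (Rfx7).

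**Figure D4:**
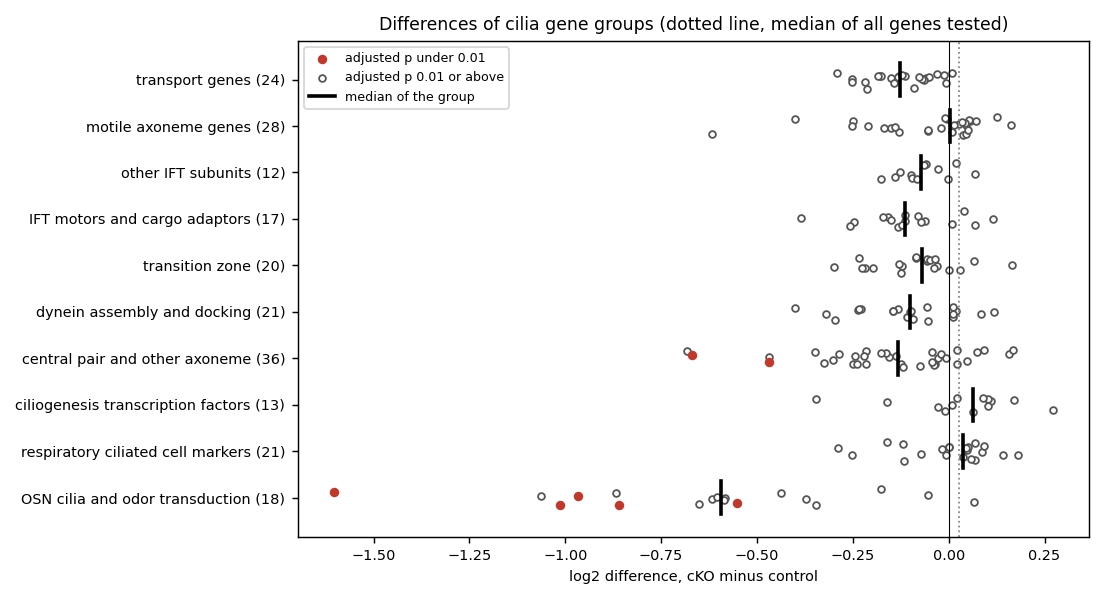
Fitted log2 differences (cKO minus control) of single genes in 10 gene groups, with the number of genes in parentheses, a bar at the median of each group and red points for an adjusted p under 0.01. No transport or motile axoneme gene is red, their medians are -0.13 and 0.0023, and the OSN cilia group lies farthest from 0 with a median of -0.59.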

How the data were processed

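RNA of 8 arrays, 4 cKO and 4 control, was analysed. The deposited values, 1 for each of 28312 transcript clusters on every array, are on the log2 scale and were made by the authors with Affymetrix Expression Console according to the submitters' processing notes. For summarization, version and normalization between arrays, nothing is given in the sources used here. Background signal under each value compresses log2 differences of dim genes, and the number of arrays limits precision.

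Clusters were named from the platform annotation (1 symbol for 21759, several for 1605, none for 4948), and those with several symbols were left out. Of the named clusters 21668 were matched by identifier to RefSeq. The cluster with the highest mean stood for its gene, which left 19928 genes. Differences were tested with limma 3.58.1 in R 4.3.3 (lmFit, eBayes, two-sided, Benjamini-Hochberg over all genes, adjusted p under 0.01), after a check on simulated data. Confidence intervals are at the 95% level. The labels call the controls littermates but do not say which mice shared a litter, so litter could not enter the fit, and p-values measure the spread between these mice.

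The members and lists were chosen with earlier results of these data known. Named were members with an adjusted p under 0.05, the lowest and highest of each role, and those with the widest spread within a group. Lhx2, Foxj1, Omp and, from some lists, genes among the 4 with the smallest p were also named. These were not always taken in order of p, and Pde1c was passed over for Cnga4 among the OSN cilia genes. Other genes, such as Dnah5, Dnah9, Ift172, Rsph1, Rsph4a, Rsph14, Tekt2 and further kinesin and RFX genes, were named after their values were seen. Alternatives were the adjusted p under 0.05, the t-test of the methods, trended and robust eBayes, quantile normalization, median centring, a filter at the lower quartile of level, every cluster kept, title letter or sex as block, each letter alone, array weights, each control genotype alone, and each array left out. A search of protein sequences that was planned was not run. Promoter windows of RefSeq (GRCm38.p6) were searched in Python 3.11.15.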

Additional observations from a re-analysis of the deposited data

Results flagged for a closer look

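In 108 groups of 4 arrays (52 genes and both class means, cKO and control each), 4 held 1 array far from the others by Dixon's criterion at the 95% level, when chance flags about 1 in 20 groups. For Dnah1, control 2 read 8.90 and the other controls 8.74 to 8.75. For Dnah3, cKO 4 read 11.36 and the other cKO arrays 11.12 to 11.14. For Dync2li1, cKO 2 read 9.52 and the other cKO arrays 9.73 to 9.74. For Ift52, control 3 read 11.15 and the other controls 11.21. The 4 flags fell on 4 different arrays.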

How the results depend on the processing

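Across the alternatives, transport genes below 0 numbered 21 to 24 of 24 and motile axoneme genes 11 to 20 of 28. Of 1087 values of single members under the alternatives, 1001 had the same sign as before and 86 the other sign. The changes of sign fell on 19 members, and wherever the sign changed both adjusted p-values were at least 0.347. At an adjusted p under 0.05, 10 values passed that had not, 44 no longer passed, and 0 that passed on either side changed sign. At the main threshold, lower transport genes numbered 0 and became 3 at an adjusted p under 0.05, 4 at p under 0.01 in the t-test before adjustment, and 1 with title letter as block. Lower motile axoneme genes numbered 0 and became 1 at an adjusted p under 0.05, with the unadjusted t-test, with title letter as block, within letter A and with array weights. Leaving out single arrays gave 0 to 0 for both. The number of transport genes lower at an adjusted p under 0.05 was 3, and became 0 with the t-test, 5 with title letter as block (Bbs7 and Ift81 in addition), 1 within letter A (Ift81), 0 within letter B, 0 with either control genotype alone, and 0 to 3 when single arrays were left out (3 without control 2, where Ift81 passed and Bbs1 did not, 1 without cKO 1, 0 without any other). For motile axoneme genes the 1 became 0 with the t-test, within letter B and with either control genotype alone, 2 with trended and robust eBayes and with sex as block, and 0 to 2 with single arrays left out (2 without cKO 1 or control 3, 0 without control 1 or control 4). The transport median was -0.073 against Lhx2fl/+ controls, -0.18 against 123Cre:Lhx2fl/+ controls, and -0.15 to -0.078 with single arrays left out, -0.078 being without control 3. The motile axoneme median was -0.14 within letter B. Transport minus motile axoneme was -0.14 within letter A, 0.040 within letter B and -0.10 to -0.05 with single arrays left out. The cause of these shifts was not tested, and within letter B the lone cKO array is assumed to vary like the controls. Of 21 alternatives Dnah11 passed an adjusted p under 0.05 in 15 (difference -0.74 to -0.50), Ift80 in 10, Bbs1 in 8 and Dync2h1 in 7, and when single arrays were left out in 6, 2, 0 and 1 of 8. Over all genes, the number lower at the main threshold was 412 and ran from 30 (without control 1) to 657 (without cKO 2) when 1 array was left out. At an adjusted p under 0.05, the number lower over all genes was 1031 of 19928. It fell to 163 with the t-test, 110 with Lhx2fl/+ controls alone and 108 with 123Cre:Lhx2fl/+ controls alone. With single arrays left out it ran from 627 to 1022, so that calls were lost over all genes as well as among members. No paired analysis was possible because replicate numbers were given in accession order and the labels pair no mice.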
